A study of Mus musculus with 12 samples.

Results

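The mRNAs of 73 cytosolic ribosomal protein genes were examined in 12 RNA-seq libraries of 2 mouse testis cell lines. These genes were all rows of the deposited table, 73 of 17995, whose symbol reads Rpl or Rps followed by a number and, where present, the letter a, x or y and a further digit, a rule that uses no measured value. They comprised 43 genes of the large (60S) subunit and 30 genes of the small (40S) subunit. The study asked what knockdown of the M5 muscarinic acetylcholine receptor, encoded by Chrm5, changes in testis cells. C18-4 is an established mouse spermatogonial stem cell line and TM4 is an established mouse Sertoli cell line, each of them a single line, and the labels give the strain of both as IRC. In each line, 3 libraries came from cells given a mix of shRNAs against M5 (shM5) and 3 libraries from cells given a control shRNA (shNC). The shRNAs were delivered by lentivirus together with a transfection reagent and stably transfected cells were grown on, so both groups of a line carried virus and an shRNA, and untreated cells were not analysed here. Nothing in the labels says that the 3 libraries of a group came from separate cultures, so p-values measure only the spread between these libraries, which may be technical.

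The cytosolic ribosome reads mRNA on the small subunit and forms peptide bonds on the large subunit. Each ribosomal protein is needed once per ribosome, with few exceptions, and growing cells spend a large part of their transcription on ribosomal protein mRNAs. Most of these mRNAs start with a C followed by a run of pyrimidines, the 5′ terminal oligopyrimidine (TOP) motif, through which mTOR signalling and the RNA-binding protein Larp1 control their translation and stability together.

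The values were RPKM, read numbers divided by gene length and library size, so that levels can be compared between genes per length, and the number of reads behind a value is unknown. Chrm5 was listed at 0.01 RPKM in C18-4 shNC replicate 2 and TM4 shNC replicate 1 and at 0 in the other 10 libraries, so it could not check the labels. The lines carried few of the defining markers of their names. Of 18 spermatogonial markers 16 were in the table, and in C18-4 libraries they summed to 86.0 to 150 RPKM, of which Uchl1 gave 76.8 to 140, while Ret, Zbtb16, Ddx4 and Dazl were at or below 0.05 RPKM. Of 17 Sertoli markers 15 were in the table, and they summed to 25.4 to 36.7 RPKM in TM4 libraries and 76.5 to 89.7 RPKM in C18-4 libraries. Sox9 was at 1.11 to 1.74 RPKM and Wt1 at 0.06 to 0.15 RPKM in TM4 libraries, whereas Wt1 was at 53.9 to 72.3 RPKM in C18-4 libraries. TM4 libraries also held 1327 to 1884 RPKM of 10 peritubular and fibroblast markers, against 437 to 598 RPKM in C18-4 libraries. Of this sum in TM4 libraries Dcn gave 565 to 854 RPKM and Col1a2 297 to 566 RPKM. Col1a1 went the other way, at 131 to 291 RPKM in TM4 and 287 to 386 RPKM in C18-4 libraries. Between the shNC libraries of the lines, 5 markers of this list were lower and 3 higher in C18-4 cells (limma, adjusted p below 0.05). Libraries of 1 group did not always resemble each other. TM4 shNC replicates 1 and 2 lay close together, at a root mean square log2 difference of 0.211 across genes, and at 0.630 to 0.662 from the other 4 TM4 libraries, whereas TM4 shNC replicate 3 lay at 0.227 to 0.269 from the TM4 shM5 libraries. In C18-4 cells replicate 3 of both groups lay at 0.377 to 0.487 from replicates 1 and 2, and the replicate 3 libraries of both groups deviated together. Results that rest on these libraries are given with and without them.

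To show what the members carry at their 5′ ends, windows of 30 bases, from 10 bases before to 20 bases after the annotated start, were taken from the RefSeq promoter table of the GRCm38.p6 build for members described below. The table held windows of 54 of the 73 members. Capitals mark the pyrimidine run, defined as a C within 5 bases of the annotated start followed by at least 4 pyrimidines on the sense strand. All are printed 5′ to 3′ on the strand of the gene. The windows of Rpl5 and Rps19 hold no run by this definition. They lie at chr2:32961702-32961731 on the plus strand (Rpl12), chr9:120571507-120571536 on the plus strand (Rpl14), chr11:114668570-114668599 on the plus strand (Rpl38), chr17:24720053-24720082 on the plus strand (Rps2), chr4:86857348-86857377 on the minus strand (Rps6), chr5:107900518-107900547 on the plus strand (Rpl5) and chr7:24884582-24884611 on the plus strand (the first of 3 windows of Rps19).
Rpl12: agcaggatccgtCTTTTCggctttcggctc
Rpl14: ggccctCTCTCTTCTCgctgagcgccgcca
Rpl38: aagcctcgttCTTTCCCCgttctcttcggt
Rps2: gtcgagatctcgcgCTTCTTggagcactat
Rps6: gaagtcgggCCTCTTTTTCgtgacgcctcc
Rpl5: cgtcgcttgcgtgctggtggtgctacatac
Rps19: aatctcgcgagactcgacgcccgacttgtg
A run was present in 26 of 54 members, or 48.1%, in 21.2% of all 27025 genes of the promoter table and in 24.0% of 9327 of them that were tested in C18-4 cells. Runs farther from the annotated start were not scored, and the starts used in these cells were not measured. The score therefore does not show which members lack a TOP motif. In the full windows of 300 bases, CCGGAAG, the letters that ETS-family factors recognise, was found on either strand in 22 members (40.7%), in 9.93% of all genes and in 21.2% of the genes tested in C18-4 cells. AAGATGG, letters within the motif of the factor Yy1, was found on either strand in 9 members (16.7%), in 7.28% of all genes and in 8.57% of those tested, and TATAAA in 5 members (9.26%), in 15.7% of all genes and in 8.17% of those tested. Occurrences of these motifs may overlap one another and are matches of letters only.

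All 73 members were above 0 in every library and all passed the filter on low values in every comparison. Their mean over the 12 libraries ran from 11.9 RPKM for Rpl29 to 4067 RPKM for Rps2, with a median of 1032 RPKM, where the median of all genes was 4.53 RPKM. Of the 72 genes at or above 1000 RPKM in the table, 38 were members. Together the members held 15.4% to 17.2% of all RPKM in C18-4 libraries and 16.1% to 16.8% in TM4 libraries. The ratio of the summed RPKM of large to small subunit genes lay between 1.52 and 1.57 in C18-4 libraries and between 1.46 and 1.49 in TM4 libraries. These ranges did not overlap, but the sums leave out near-identical copies that the table lists as rows of their own. Among these were LOC105244208, a copy of Rps6 (1686 RPKM in C18-4 and 1319 RPKM in TM4 libraries), and Rpl34-ps1, a copy of Rpl34 (20.7 and 1050 RPKM). With the copies added the ranges overlap, so no difference in subunit balance is read from them. The 5 highest members were Rps2, Rpl23a, Rps26, Rpl12 and Rpl26. Rps2 sits near the path of the mRNA into the small subunit, Rpl23a at the exit of the peptide tunnel, where the signal recognition particle docks, and Rpl12 at the base of the stalk that recruits translation factors. At the low end, 69 members had a mean of at least 100 RPKM and 4 did not, namely Rpl29, Rps6, Rps15a and Rps20. The ratio between the highest and the lowest of the 12 libraries was 1.40 in the median member and under 1.5 in 48 members. It was above 2 in 4 members, namely Rps6 (3.33), Rpl29 (2.85), Rps14 (2.65) and Rpl38 (2.05).

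In C18-4 cells the ribosomal protein mRNAs were lower with shM5 as a group, by a small amount that was alike in both subunits. Their summed RPKM was 92931, 87386 and 83941 in shNC replicates 1 to 3 and 83497, 80863 and 77739 in shM5 replicates 1 to 3. All shM5 libraries were thus below all shNC libraries, and the group means were 88086 ± 4536 and 80700 ± 2882 (SD, n = 3). Between libraries of the same number the sum changed by -10.2%, -7.47% and -7.39% with shM5, and 71, 64 and 64 of the 73 members were lower. RPKM of all genes summed to 540231, 526327 and 512593 with shNC and to 523453, 515879 and 506413 with shM5. Of these totals the members held 17.20%, 16.60% and 16.38% with shNC and 15.95%, 15.67% and 15.35% with shM5. These shares fell less, in relative size, than the sums. The median log2 fold change of the members was -0.13, against -0.0024 for all genes tested, and 70 of 73 members were below 0. The median of large subunit genes was -0.12, with 40 of 43 below 0, and that of small subunit genes was -0.14, with 30 of 30 below 0. The direction of the median held under every alternative run, and its size shrank to -0.046 when the libraries were quantile normalised, a step that gives each library the same distribution of values, at whose top the members make up much of the list. In bulk libraries a change in the mix of cells and a change in RNA per cell cannot be told apart.

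**Figure D1:**
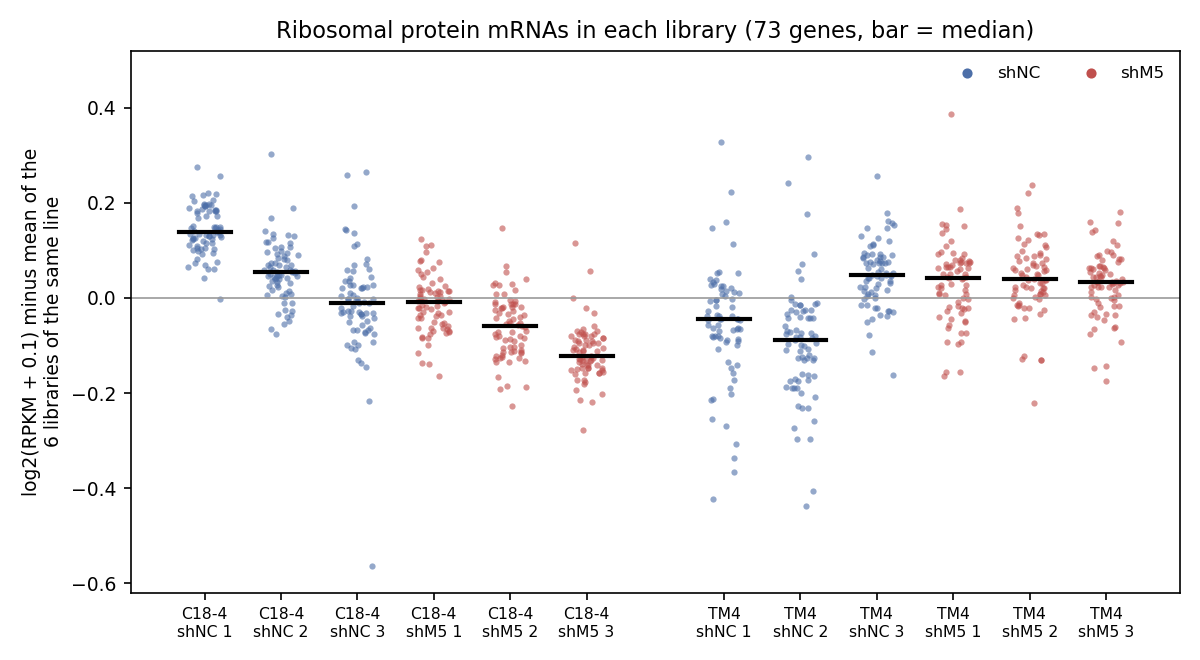
Deviation of each of the 73 ribosomal protein mRNAs from its mean over the 6 libraries of the same line, in log2(RPKM + 0.1), for each of the 12 libraries (points are genes, bars are medians, blue is shNC and red is shM5). The medians of C18-4 libraries run from 0.14 in shNC replicate 1 to -0.12 in shM5 replicate 3, and in TM4 cells shNC replicates 1 and 2, at -0.04 and -0.09, sit below the other 4 libraries, at 0.03 to 0.05; with quantile normalisation the median fold change shrinks to -0.046 in C18-4 cells and turns to -0.040 in TM4 cells.

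Whether single members passed a test depended on the replicate numbers. In the limma fit without a block, 0 members had an adjusted p below 0.05, where 0.586% of all genes tested did. The smallest value, 0.208, was that of Rpl5, and 14 members were below 0.05 before adjustment. In C18-4 cells the deviations from the group mean correlated at 0.631 between the replicate 3 libraries. Replicates 1 and 2 correlated at 0.439 and 0.409 with their own number and at 0.341 and 0.345 with the other. Mainly replicate 3 was thus set apart, and matched pairs are not established. With the replicate number as a block 23 members fell and none rose (limma, adjusted p below 0.05, and 48 members at an unadjusted p below 0.05). Of all genes tested, 11.9% passed in that fit, and 6.73% fell and 5.21% rose. The 23 members, 13 of the large and 10 of the small subunit, fell by 9.85% to 18.7%. Without replicate 3 of both groups and without a block, 33 members fell, where 13.4% of all genes did, and the median was -0.14. The shM5 and shNC libraries did not overlap in 29 members, which was 39.7% of members and 9.55% of all genes, and all 29 were lower with shM5, while 9.3% of all genes lay higher without overlap. In all 3 same-numbered pairs 57 members were lower, or 78.1%, and 25.8% of all genes were. The 806 other genes of at least 100 RPKM had a median of -0.00017, with 7.44% of them lower in the blocked fit. Among the 29 other genes of at least 1000 RPKM the median was -0.09 and 8 fell, and among the 21 of these outside the lists of ribosome and TOP genes the median was -0.0063 and 4 fell.

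Among large subunit genes, Rpl36 was at 582, 601 and 569.5 RPKM with shNC and at 525, 469 and 435 RPKM with shM5. Every shM5 library was below every shNC library, and the log2 fold change was -0.30 (SE 0.085, adjusted p = 0.219 in limma without the block, and SE 0.054, adjusted p = 0.0143 with it). Rpl14 was at 1213, 1142 and 1062 RPKM with shNC and at 1017, 958 and 896 RPKM with shM5. Its groups did not overlap either, with a log2 fold change of -0.25 (adjusted p = 0.284 without the block and 0.00799 with it). Rpl5, which carries the 5S rRNA into the large subunit and, when unassembled, binds Mdm2, was at 1001, 958 and 901 RPKM with shNC and at 806, 796 and 801 RPKM with shM5. It was lower in every shM5 library, with a log2 fold change of -0.25 (adjusted p = 0.208 without the block and 0.0124 with it). Its partner Rpl11 was at 1045, 1058 and 895 RPKM with shNC and at 958, 954 and 859 RPKM with shM5, so that its groups overlapped, and its change of -0.11 passed neither fit (adjusted p = 0.728 and 0.110). Rpl12 was at 2202, 2070.0 and 2219 RPKM with shNC and at 1894, 1833 and 1876 RPKM with shM5, without overlap, and fell by 0.21 on the log2 scale in the blocked fit (adjusted p = 0.0154, and 0.284 without the block).

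Rpl3, which lies next to the peptidyl transferase centre, shows what the block does. It was at 919.95, 873 and 1069.7 RPKM with shNC and at 812, 786 and 929.8 RPKM with shM5. Replicate 3 was the highest library of both groups, so that the groups overlapped although each pair was lower with shM5. Its log2 fold change was -0.18, with an SE of 0.105 without the block and 0.039 with it (adjusted p = 0.579 and 0.0256). Rpl10a, the protein of the L1 stalk at the exit site of transfer RNA, had the same order of libraries, at 829, 799.7 and 998 RPKM with shNC and 756, 729 and 901 RPKM with shM5, and its change of -0.14 stayed short of the threshold with the block (adjusted p = 0.0541). Rpl3 and Rpl10a were the only members in which replicate 3 of both groups lay above the other 4 libraries, whereas 34.4% of all genes did so, and 21 members (28.8%) had replicate 3 of both groups below the other 4, against 16.2% of all genes. Rpl13a, which can leave the ribosome to silence inflammatory mRNAs, was 0.15 lower on the log2 scale and also stayed short (adjusted p = 0.0586 with the block).

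Among small subunit genes, Rps20, in the head of the subunit, was at 83.0, 77.4 and 85.8 RPKM with shNC and at 71.7, 64.1 and 70.2 RPKM with shM5. All shM5 libraries were below all shNC libraries, and it fell by 0.26 on the log2 scale in the blocked fit (SE 0.046, adjusted p = 0.0133, and 0.235 without the block). Rps2 was at 3929, 3834 and 3388 RPKM with shNC and at 3243, 3107 and 3070.0 RPKM with shM5. These did not overlap, and it fell by 0.24 (SE 0.046, adjusted p = 0.0167 with the block and 0.327 without it). Rps19, the gene most often mutated in Diamond-Blackfan anaemia, was at 486, 449 and 428 RPKM with shNC and at 434, 396 and 384 RPKM with shM5. Only shNC replicate 3 and shM5 replicate 1 crossed, and it fell by 0.17 (SE 0.039, adjusted p = 0.0323 with the block and 0.483 without it). Rps6, the substrate of the S6 kinases, was at 14.0, 14.5 and 10.7 RPKM with shNC and at 10.5, 10.7 and 10.7 RPKM with shM5. The difference lay in shNC replicates 1 and 2, and its change of -0.28 passed neither fit (adjusted p = 0.453 and 0.0961). Rps3, at the mRNA entry site, and Rps25, which some viral internal ribosome entry sites need, had log2 fold changes of -0.11 each, and Rps14 of -0.10. None of these 3 passed the blocked fit, with adjusted p of 0.127, 0.0979 and 0.233.

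**Figure D2:**
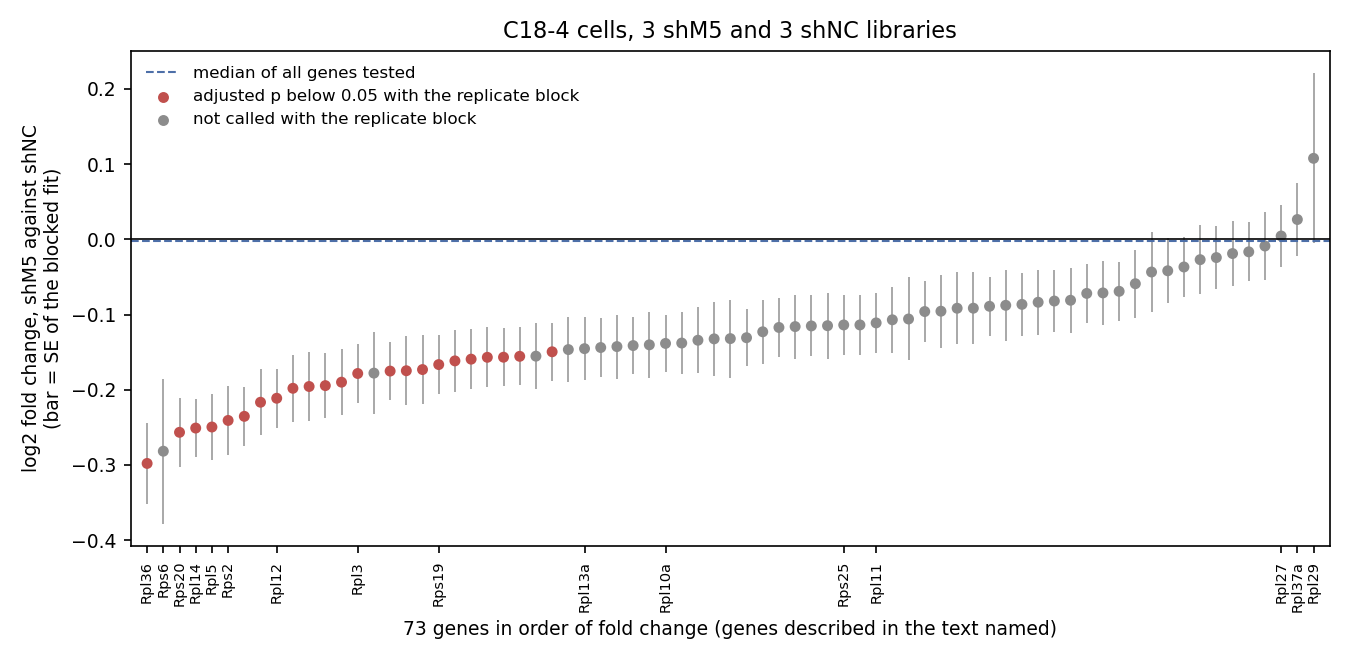
Log2 fold change of shM5 against shNC in C18-4 cells for all 73 ribosomal protein mRNAs, in order of size (points are limma estimates from 3 and 3 libraries, bars are the SE of the blocked fit, red marks an adjusted p below 0.05 in that fit). All but 3 points lie below 0, from -0.30 for Rpl36, and the dashed line gives the median of all genes tested, -0.0024; the median of the members, -0.13, shrinks to -0.046 with quantile normalisation.

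The 3 members above 0 were Rpl29, Rpl37a and Rpl27. Rpl29 was at 11.5, 10.3 and 6.37 RPKM with shNC and at 10.3, 10.5 and 8.76 RPKM with shM5, which overlapped, with a log2 fold change of 0.11 (adjusted p = 0.566 with the block). Without shNC replicate 3, its lowest library, the value was -0.15. The changes of Rpl37a, 0.03, and Rpl27, 0.0044, were smaller than their SE. In the members with and without a pyrimidine run at the annotated start the median log2 fold change was -0.14 (26 members, 7 of them lower in the blocked fit) and -0.12 (28 members, 9 lower), and in those with and without CCGGAAG it was -0.09 (22 members, 4 lower) and -0.14 (32 members, 12 lower). These splits were not tested.

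Of 7 further ribosome genes in the table whose symbols do not follow the pattern, all were below 0 in C18-4 cells, with a median of -0.20, and 4 fell in the blocked fit. These were the stalk proteins Rplp0 (-0.32, adjusted p = 0.0113), Rplp1 (-0.20, adjusted p = 0.0260) and Rplp2 (-0.25, adjusted p = 0.00893), and Rpsa (-0.29, adjusted p = 0.00994), a small subunit protein also known as a laminin receptor, while Fau and Rack1 were -0.11 and -0.14 without passing. None of the 7 passed the fit without the block, where the adjusted p of these 4 was 0.181, 0.395, 0.245 and 0.215 in the same order. Of 23 other mRNAs with a TOP motif, mostly translation factors, 19 were below 0 with a median of -0.10, and 2 fell in the blocked fit. Of 78 mitochondrial ribosomal protein genes, 51 were below 0 with a median of -0.03, and 3 fell and 1 rose. Among 18 genes for chaperones of ribosomal proteins and the ribosome checkpoint, and among 18 regulators of ribosomal protein genes including Myc, Larp1 and Mtor, none passed either fit. The paralog Rps27l, a target of p53, was at 169, 156 and 99.9 RPKM with shNC and at 103, 89.1 and 75.3 RPKM with shM5, and fell by 0.64 in the blocked fit (adjusted p = 0.00295, and 0.275 without the block). Rpl22l1, Rpl36al and Rpl7l1 had log2 fold changes of 0.11, -0.0061 and -0.00016 and did not pass. Rpl3l was at or below 0.07 RPKM in C18-4 libraries, and Rpl39l and Rps27rt were listed at 0 in all 12 libraries.

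In TM4 cells no member passed the test, and the order of the libraries followed TM4 shNC replicates 1 and 2. The summed RPKM of the members was 85052, 82453 and 90443 with shNC and 88529, 89424 and 88868 with shM5. The shM5 libraries lay within the range of the shNC libraries, and between same-numbered libraries the sum differed by 4.09%, 8.45% and -1.74%. RPKM of all genes summed to 518591, 512868 and 538387 with shNC and to 535235, 535074 and 535986 with shM5. Of these totals the members held 16.40%, 16.08% and 16.80% with shNC and 16.54%, 16.71% and 16.58% with shM5. These shares differed less, in relative size, than the sums. The median log2 fold change was 0.06, against 0.04 for all genes tested and 0.07 for 807 other genes of at least 100 RPKM. The median turned to -0.040 with quantile normalisation. The fold change was above 0 in 55 members and below 0 in 18. In limma 0 members had an adjusted p below 0.05 without or with the block, as did 0% of all genes, and 8 and 5 members had an unadjusted p below 0.05. The groups did not overlap in 9 members that were higher with shM5 (12.3%, against 15.7% of all genes) and in 2 that were lower, Rpl12 and Rpl26 (2.74%, against 11.1%).

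Rpl29 and Rps14 had log2 fold changes of 0.39 and 0.26 in TM4 cells (adjusted p = 0.192 each). Rps14 was at 633, 633 and 697 RPKM with shNC and at 762, 783 and 796 RPKM with shM5, so that all shM5 libraries were higher. Rpl29 was at 10.3, 11.8 and 14.6 RPKM with shNC and at 18.15, 14.59 and 15.1 RPKM with shM5, which overlapped. In Rpl29 and in Rps14 shNC replicates 1 and 2 lay below the other 4 TM4 libraries. Other members that differed much in TM4 cells likewise did so between shNC replicates 1 and 2 and the other 4 libraries. Rpl4, which lines the peptide tunnel, was at 1222, 1256 and 1683 RPKM with shNC and at 1757, 1746 and 1703 RPKM with shM5. Rpl37a was at 283, 269 and 435 RPKM with shNC and at 403, 425 and 413 RPKM with shM5. In both genes shNC replicate 3 was close to the level of shM5, and their log2 fold changes of 0.34 and 0.36 were not called (adjusted p = 0.192 and 0.210 in limma). In 3 other large subunit genes shNC replicates 1 and 2 were the higher ones. Rpl10a was at 1043, 1021 and 743 RPKM with shNC and at 746, 759 and 736 RPKM with shM5, Rpl3 at 1344, 1363 and 1065 RPKM and at 1095, 1055 and 1040.2 RPKM, and Rpl12 at 2997, 3033 and 2632 RPKM and at 2509, 2463 and 2513 RPKM. Their log2 fold changes of -0.31, -0.23 and -0.21 were not called either (adjusted p = 0.192, 0.194 and 0.192).

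**Figure D3:**
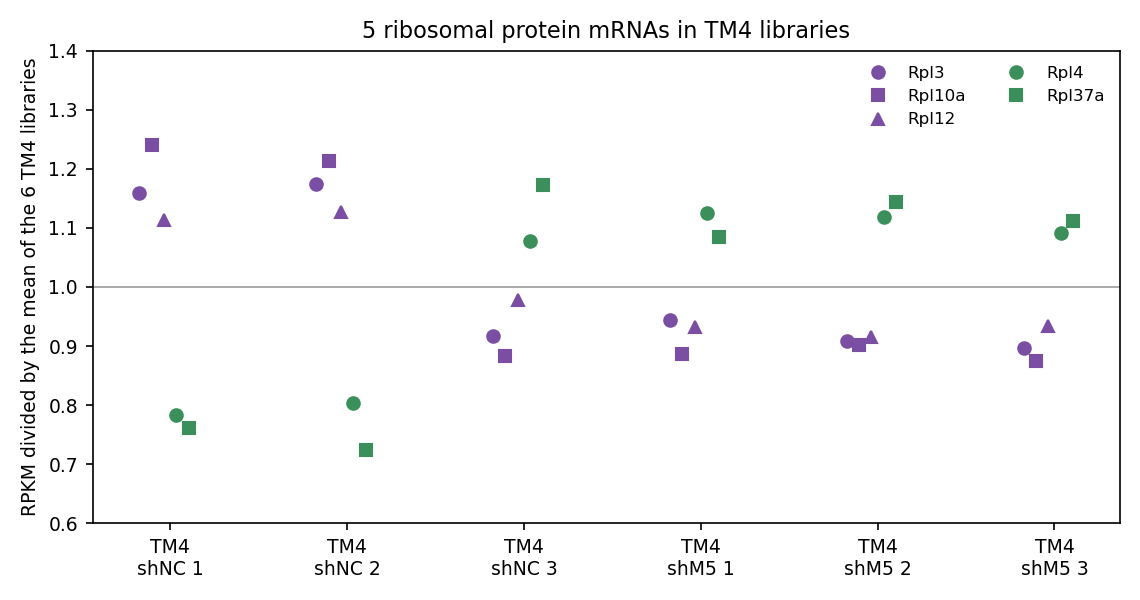
RPKM of 5 large subunit genes in each of the 6 TM4 libraries, divided by the mean of that gene over the 6 libraries. In shNC replicates 1 and 2 Rpl3, Rpl10a and Rpl12 lie above and Rpl4 and Rpl37a below the other 4 libraries, and shNC replicate 3 lies with the shM5 libraries.

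In 43 members (58.9%) both of these shNC libraries lay below the other 4 TM4 libraries, as they did in 40.7% of all genes, and in 5 members (6.85%), namely Rpl3, Rpl10a, Rpl12, Rpl13a and Rpl26, they lay above, as they did in 35.4% of all genes. The result of the test depended on which shNC libraries were kept. Without shNC replicate 3, 32 members rose and 4 fell in limma, at a background of 36.5% and 30.9% of all genes, with Rpl4 at 0.49, Rpl37a at 0.58, Rpl10a at -0.47, Rpl3 at -0.35 and Rpl12 at -0.27. Without shNC replicates 1 and 2, 0 members passed in limma (1 at an unadjusted p below 0.05, and 0% of all genes passed), with the lone shNC library assumed to vary like the shM5 libraries, and the median was -0.0082. Other transcripts moved with the same 2 libraries. A list of 15 genes, made of the stress factor Atf4 itself and its targets, summed to 3183 and 3177 RPKM in shNC replicates 1 and 2. It summed to 1284 to 1366 RPKM in the other 4 TM4 libraries. Myc was at 352 and 346 RPKM in shNC replicates 1 and 2, at 127 RPKM in shNC replicate 3 and at 98.7 to 109 RPKM with shM5. In C18-4 libraries Atf4 and its targets summed to 1907 and 2034 RPKM in replicate 3 and to 1245 to 1311 RPKM in replicates 1 and 2. The part of these transcripts in the levels of the ribosomal protein mRNAs was not tested. Of the 7 further ribosome genes 6 were above 0 in TM4 cells, of 23 other TOP mRNAs 13, and of 78 mitochondrial ribosomal protein genes 44, while 14 of 18 chaperone and checkpoint genes and 13 of 18 regulators were below 0, and none of these lists had a gene that passed.

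The shM5 effects of the 2 lines were compared directly, as an interaction in 1 limma fit of all 12 libraries. No member passed, without or with the block (27 members at an unadjusted p below 0.05 without it, and 0.102% and 0.017% of all genes passed), although 70 of 73 members had a more negative value in C18-4 cells. The median difference was -0.20, against -0.04 for all genes tested, and it shrank to -0.010 with quantile normalisation. Among 34 other genes of at least 1000 RPKM the median difference was -0.32, and 32 of them were below 0. Among the largest differences were -0.47 for Rpl14 (SE 0.119, adjusted p = 0.143) and -0.42 for Rpl4 (SE 0.163, adjusted p = 0.212). In the other direction they were 0.17 for Rpl10a, 0.05 for Rpl3 and 0.03 for Rpl26, with adjusted p of 0.598, 0.847 and 0.861. Without TM4 shNC replicate 3, 31 members passed, all with a more negative value in C18-4 cells, at a background of 21.5% of all genes. Without TM4 shNC replicates 1 and 2, 0 members passed in limma (4 at an unadjusted p below 0.05), the median was -0.13 and 64 of 73 members were below 0.

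Between the lines, in shNC libraries, some ribosomal protein mRNAs differed by more than any did with shM5. Here 26 members passed limma at an adjusted p below 0.05, with 16 higher and 10 lower in C18-4 than in TM4 cells, where 55.2% of all genes passed, 34.7% higher and 20.5% lower. With log2 values centred on the median of each library, which allows for a median log2 difference of 0.15 over all genes, the split was 9 higher and 16 lower, at a background of 29.3% and 25.6%. The libraries of the lines did not overlap in 19 members that were higher in C18-4 cells (26.0%, against 39.3% of all genes) and in 20 that were lower (27.4%, against 24.3%). The size of the difference without its sign was 0.217 in the median member, 0.369 in 812 other genes of at least 100 RPKM and 0.555 in all genes, on the log2 scale. Of the 7 further ribosome genes, Rack1, a scaffold on the head of the small subunit, was 0.64 higher in C18-4 cells (adjusted p = 0.000632) and 4 were lower, and of 78 mitochondrial ribosomal protein genes 29 were higher and 11 lower. Line and culture cannot be told apart here, since each line is a single culture history in its own medium.

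Rps14, whose loss underlies the anaemia of the human 5q deletion syndrome, had the largest positive difference. It was at 1679, 1541 and 1316 RPKM in C18-4 shNC libraries and at 633, 633 and 697 RPKM in TM4 shNC libraries, with no overlap, a log2 difference of 1.20 (SE 0.116, adjusted p = 0.000143) and values of 1327 to 1464 and 762 to 796 RPKM in the shM5 libraries of the lines. Rpl38, which is needed for the translation of certain Hox mRNAs, was at 2105, 2024 and 1964 RPKM in C18-4 and at 1185, 1063 and 1301 RPKM in TM4 shNC libraries. It did not overlap and was 0.78 higher (SE 0.104, adjusted p = 0.000754). Rpl14 (0.78, adjusted p = 0.000884), Rpl21 (0.76, adjusted p = 0.000842) and Rpl23a (0.68, adjusted p = 0.00138) were the next, and Rps27a, made as a fusion with ubiquitin, was 0.52 higher (adjusted p = 0.00383).

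Rpl10, which joins the large subunit late in its maturation and reaches to the site of peptide bond formation, was at 1124, 1061 and 1075 RPKM in C18-4 and at 1723, 1674 and 1762 RPKM in TM4 shNC libraries. It was lower in every C18-4 library, by 0.66 on the log2 scale (SE 0.083, adjusted p = 0.000545). Rpl35, near the exit of the tunnel, was at 1877, 1785 and 1690.0 RPKM in C18-4 and at 2462, 2330.0 and 2509 RPKM in TM4 shNC libraries, with no overlap (-0.45, adjusted p = 0.00528). Rpl12 (-0.41, adjusted p = 0.0106), Rpl3 (-0.39, adjusted p = 0.0426) and Rps6 (-1.35, adjusted p = 0.000237) completed the 5 largest among the members called lower, and the value of Rps6 turned to 0.46 when the row with an identical reading frame was added to it. The members named by role that did not pass were Rps4x, on the X chromosome in mice as well as in humans, Rps3, Rps25, Rpl5, its partner Rpl11, Rpl10a, Rpl22, Rpl36a and Rpl39, with log2 differences of -0.03, -0.14, 0.09, -0.10, 0.07, -0.09, -0.08, -0.30 and -0.20. With the stricter call (a log2 ratio of 1 or more in size and an adjusted p of 0.001 or less) Rps14 and Rps6 were left, as were 19.2% of all genes. In the shM5 libraries of both lines 61 members passed, 14 higher and 47 lower in C18-4 cells, at a background of 42.5% and 29% of all genes. Without TM4 shNC replicates 1 and 2, 11 members passed, 7 higher and 4 lower, at a background of 26.1% and 13.1%.

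**Figure D4:**
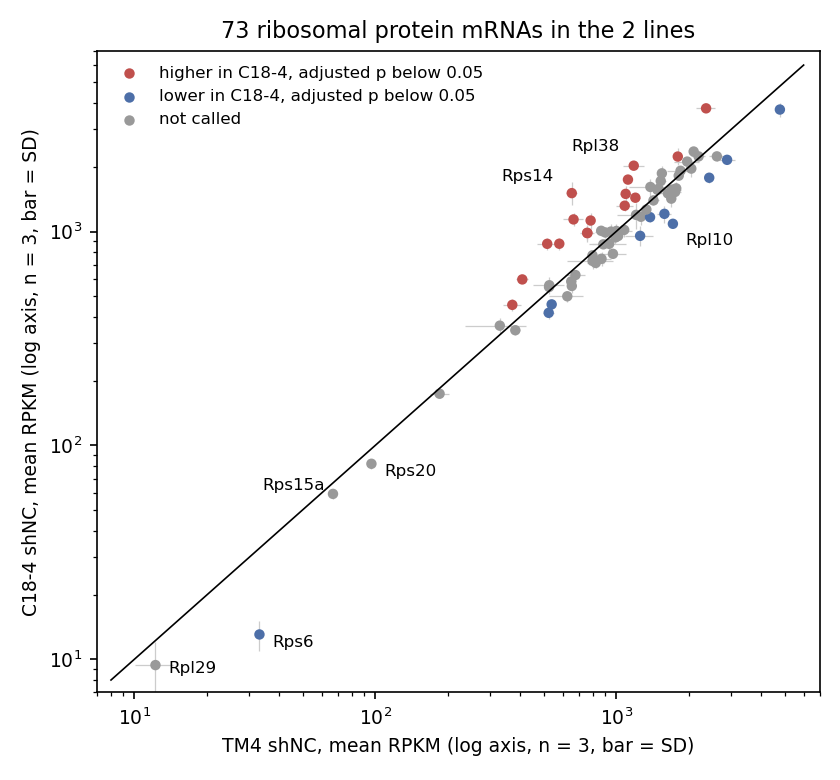
Mean RPKM of the 73 ribosomal protein mRNAs in C18-4 shNC (vertical) and TM4 shNC libraries (horizontal), both on log axes, with bars for the SD of 3 libraries and colours for limma calls at an adjusted p below 0.05 (red higher in C18-4, blue lower, grey neither; the line marks equal levels). Most points follow the line, 16 are red and 10 are blue, a split of 9 and 16 after centring each library on its median, and Rps6 and Rps14 lie farthest from it as listed; with rows of near-identical reading frame added, the log2 differences of Rps6 (-1.35) and Rpl34 (0.59) turn to 0.46 and -0.86.

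Several members share their sequence with processed copies elsewhere in the genome, and while the aligner was run with its option for repeat hits (-r) set to 2, how reads matching more than 1 gene were then counted is not given in the sources used here. A search of the GENCODE M21 transcripts with blastn found, for 66 of the 73 members, at least 1 other annotated gene with 95% identity or more over at least 80% of the longest open reading frame, with a median of 5 copies and a maximum of 57, for Rpl21. For 10 members the deposited table held 16 such copies as rows of their own. Rps6 was listed at 10.5 to 34.9 RPKM in the 12 libraries, while LOC105244208, identical to it over the whole reading frame of 750 bases, was at 1686 RPKM in C18-4 and 1319 RPKM in TM4 libraries. Rpl29 was at 9.63 and 14.1 RPKM in the lines while its copy Gm8210, 99.4% identical, was at 1017 and 1243 RPKM. How the reads of such pairs were shared between the rows cannot be told from the table, so the levels and changes of Rps6 and Rpl29 are uncertain.

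Adding the copies to their member changed the comparison of the lines for Rps6 and Rpl34. The summed value of Rps6 and its copy was 1949.6, 1839 and 1642 RPKM in C18-4 and 1259.6, 1271 and 1407 RPKM in TM4 shNC libraries, a log2 difference of 0.46 where Rps6 alone gave -1.35. Rpl34 alone was higher in C18-4 cells, by 0.59, but its copy Rpl34-ps1 was at 20.7 RPKM in C18-4 and 1050.5 RPKM in TM4 libraries (log2 difference -5.53, adjusted p = 8.9e-08), and the sum gave a log2 difference of -0.86. With shM5 in C18-4 cells the sum of Rps6 and its copy changed by -0.19 on the log2 scale, and LOC105244208 on its own fell in the blocked fit (-0.19, adjusted p = 0.0296), as did Gm10045, a copy of Rpl21 (-0.23, adjusted p = 0.0355). Without the block neither passed (adjusted p = 0.464 and 0.320). The sum for Rpl29 changed by -0.04 with shM5 in C18-4 cells and by 0.05 in TM4 cells, where Rpl29 alone gave 0.39. Rps15a and Rps20, the other members under 100 RPKM, had no copy among the rows of the table. The search found 6 annotated copies of Rps15a and 2 of Rps20, so whether copies affect their levels cannot be told either.

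**Figure D5:**
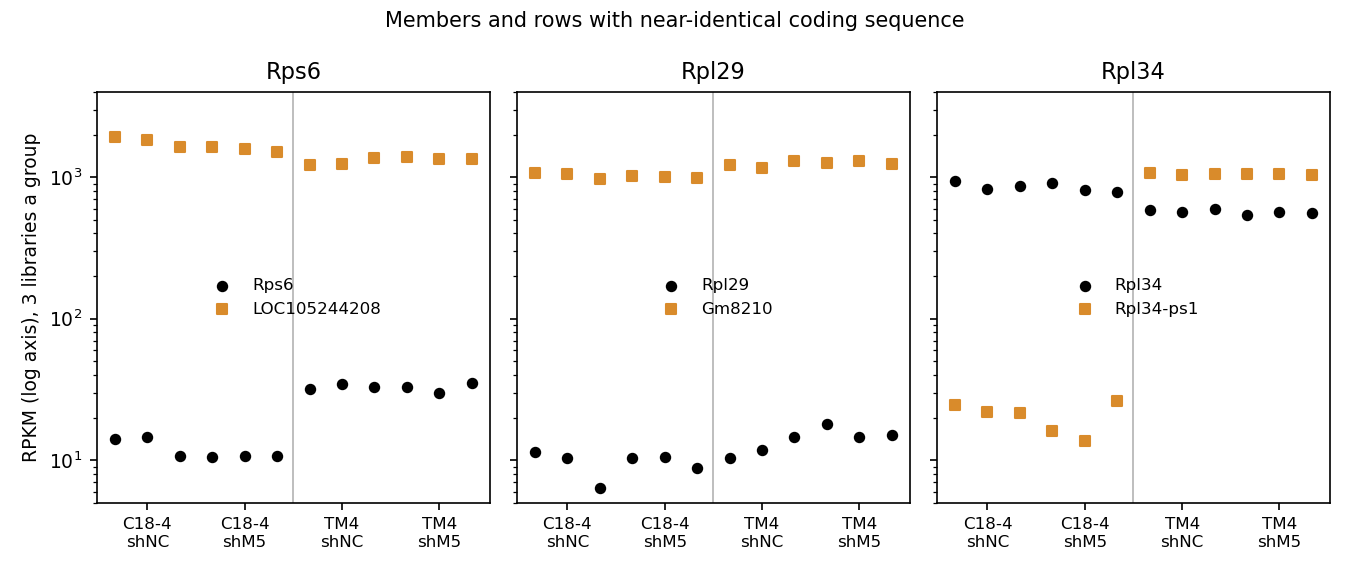
RPKM, on a log axis, of Rps6, Rpl29 and Rpl34 (black circles) and of the row with a near-identical reading frame, LOC105244208, Gm8210 and Rpl34-ps1 (orange squares), in the 12 libraries, 3 per group. The copy lies above Rps6 and Rpl29 in every library, and Rpl34-ps1 lies below Rpl34 in C18-4 and above it in TM4 libraries.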

How the data were processed

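Libraries of C18-4 and TM4 cells (3 shM5 and 3 shNC in each line) were grouped and numbered from the sample descriptions, and 0 value columns lacked a sample. The authors prepared oligo(dT)-selected RNA, ran it on an Illumina HiSeq, aligned reads to reference genes (SOAPaligner) and deposited RPKM, read numbers per length and library size, with 2 decimals. The genome build, and whether counting used strand, are not given in the sources used here. The study used DEGseq (MARS), with an FDR limit of 0.001 and a log2 ratio of 1 or more in size. Depth and sampling error are unknown, as RPKM holds no read numbers. The steps between low values of 23 genes differed between libraries by relative factors of 0.956 to 1.03.

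log2(RPKM + 0.1) was fitted with limma 3.58.1 (R 4.3.3, eBayes with trend) for every gene whose mean in the libraries of a fit reached 0.5 RPKM, with Benjamini-Hochberg adjustment over 11611 (C18-4), 11016 (TM4), 11773 (interaction of both lines) and 11810 genes (lines in shNC), and a gene was called at an adjusted p below 0.05. Fold changes are on this scale, which understates those of low genes. The design written beforehand also provided for counts, which the table does not hold. Replicate numbers were checked as a block. In C18-4 cells the deviations of same-numbered libraries from their group means correlated at 0.439, 0.409 and 0.631 across genes for replicates 1, 2 and 3. Replicates 1 and 2 of unlike number correlated at 0.341 and 0.345, little lower, and replicate 3 with the others at -0.514 to -0.467. The numbers thus mainly set replicate 3 apart and do not establish matched pairs. The blocked fit is printed beside the unblocked one where a call changes. The steps were tested on simulated data. Copies were searched with blastn, and tables and figures were made with pandas 2.3.3, numpy 2.4.6 and matplotlib 3.10.9 (Python 3.11.15).

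The members, gene lists and tests were chosen with earlier results of these data known. The text names, for each comparison and direction, up to 5 members with the largest change among those called (or the 3 largest where fewer than 3 were called), the 5 highest and 5 lowest members, members listed by role, and genes of the other lists. Other genes were named after seeing their values. Alternatives were the pseudocount, the filter, median centring, quantile normalisation, no trend, array weights, the block, the threshold of the study and leaving out libraries. The block with median centring, and leaving out TM4 shNC replicates 1 and 2, were added after seeing the data. Protein sequences were not used here, and 2 genes that the rule covers are not reported here.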

Additional observations from a re-analysis of the deposited data

Results flagged for a closer look

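In 5 members the shM5 libraries lay below all shNC libraries in C18-4 cells and above all shNC libraries in TM4 cells, which was 6.85% of members and 1.21% of the 10460 genes tested in both lines. In all 5, TM4 shNC replicates 1 and 2 lay below the other 4 TM4 libraries. TM4 shNC replicate 3 and the lowest TM4 shM5 library were at 1856 and 1921 RPKM for Rpl13, 741 and 747 for Rpl14, and 1278 and 1288 for Rpl9. They were at 897 and 905 RPKM for Rps7 and 832 and 847 for Rps9. These genes were picked for their opposite positions, so the tests below only describe them. The difference of the effects between the lines, on the log2 scale, was -0.34 for Rpl13 (SE 0.107, adjusted p = 0.183 in the interaction test of limma), -0.47 for Rpl14 (SE 0.119, adjusted p = 0.143), -0.27 for Rpl9 (SE 0.096, adjusted p = 0.200), -0.22 for Rps7 (SE 0.088, adjusted p = 0.220) and -0.26 for Rps9 (SE 0.085, adjusted p = 0.188). None passed at 0.05, and with the replicate number as a block the adjusted p lay between 0.134 and 0.151. Rpl14, with the largest difference, had log2 fold changes of -0.25 in C18-4 and 0.21 in TM4 cells. Rpl9, Rpl13, Rps7 and Rps9 were named after their values were seen.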

How the results depend on the processing

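Members called in C18-4 cells, 0 without a block, numbered 23 with the replicate block, 15 with the block and median centring, 24 with array weights and 33 without replicate 3 of each group, and 0 on leaving out any single library. Of all genes 11.9%, 10.6%, 24.3% and 26.2% were called in these 4 settings, in the same order. The median log2 fold change was -0.16 to -0.09 on leaving out single libraries and -0.046 with quantile normalisation. In TM4 cells 45 members were called with array weights (39 higher), 43 without replicate 3 of each group (38 higher), which were 61.6% and 58.9% of members against 76.7% and 72.7% of all genes, and 0 to 36 on leaving out single libraries, 36 of them without shNC replicate 3. The median was 0.04 to 0.10 on leaving out single libraries and -0.040 with quantile normalisation. For the difference between lines 57, 53 and 0 to 31 members were called with array weights, without replicate 3 of each group and on leaving out single libraries (57.7% and 59.9% of all genes in the first pair), and the median was -0.24 to -0.18 in the last and -0.010 with quantile normalisation. Between lines 26 members became 54 with array weights, 13 with the block (10 higher, 3 lower), 47 without replicate 3, 61 in shM5 libraries, 53 in all 12 libraries, 11 without TM4 shNC replicates 1 and 2, 2 at the study's threshold and 13 to 30 on leaving out single libraries, with 13 without C18-4 shNC replicate 2 or TM4 shNC replicate 1 (10 higher, 3 lower). Of all genes 85.9%, 46.1%, 83%, 71.5%, 70.9% and 39.2% were called from array weights to the setting without TM4 shNC replicates 1 and 2, in the same order. The median of -0.04 became -0.17 with median centring, -0.26 in shM5 libraries, -0.14 in all 12, -0.13 without TM4 shNC replicates 1 and 2 and -0.08 to 0.01 on leaving out single libraries. The causes of these differences were not tested.

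In TM4 cells same-numbered libraries correlated at only 0.0729, 0.0489 and 0.127, not every library best with its own number, and between the lines at -0.225, -0.198 and -0.303, so there they share a number only, and the block gave 0 calls in TM4 cells and for the difference.

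Some small values changed sign. In C18-4 cells Rpl29 gave -0.013 with array weights, -0.065 without replicate 3 of each group, -0.15 without shNC replicate 3 and up to 0.27 without other single libraries. Rpl37a gave -0.0054 and -0.013 without shNC replicates 2 and 3 in turn and up to 0.098 without others. Rpl27 gave -0.00088 with median centring, with and without the block, -0.0076 with array weights, -0.016 without replicate 3 of each group, and -0.060, -0.0065 and -0.028 without shNC replicate 3, shM5 replicate 1 and shM5 replicate 2, against up to 0.048 without others. Without TM4 shNC replicates 1 and 2, Rpl37a gave -0.074, Rpl10a 0.0082 and Rpl5 0.0091 in TM4 cells, and Rpl10a gave -0.15, Rpl3 -0.18 and Rpl26 -0.018 for the difference. The difference for Rpl3 was -0.0069, -0.019 and -0.0084 without C18-4 shNC replicate 2, C18-4 shM5 replicate 3 and TM4 shNC replicate 2 and up to 0.17 without others, and that for Rpl26 was -0.00024 and -0.00070 without C18-4 shNC replicate 2 and C18-4 shM5 replicate 1 and up to 0.071 without others. Of 323 single-gene values under an alternative in C18-4 cells, 276 kept their side and direction and 35 became called, of 221 in TM4 cells 183 and 35, of 184 for the difference 158 and 18, and of 266 between lines 221 kept them and 45 were no longer called. With 3 libraries a group and depth unknown, changes of the size seen in single members lie near the spread between libraries.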
